A study of Mus musculus with 8 samples.

Results

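The muscle myosin light chains are described here in cultured mouse myotubes as 7 genes, which were taken from the table of 35275 genes by matching each Ensembl gene ID to the symbols Mylpf, Myl2, Myl1, Myl3, Myl4, Myl6b and Mylk2. All 7 were found. A muscle myosin molecule carries a pair of heavy chains, and the lever arm of each heavy chain binds 1 essential and 1 regulatory light chain. The light chains stiffen the lever arm, and phosphorylation of the regulatory chain by a calmodulin-dependent kinase changes the force of contraction. Muscle fibres exchange light chain forms with development and fibre type: an embryonic and atrial form, fast forms, and a form shared by slow and ventricular muscle.

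RNA was measured in 8 libraries of 4 groups, with 2 libraries per group: control at 12 h, MPC EV at 12 h, control at 24 h and MPC EV at 24 h. Myotubes were grown in all groups from C57BL6/J mouse myogenic progenitor cells (MPCs) taken as primary cells, in high-glucose DMEM with horse serum. MPC EV myotubes received extracellular vesicles (EVs) collected from proliferating MPCs, and control myotubes received the EV preparation of growth media. No library came from untreated myotubes, so a gain with MPC EVs cannot be told apart from a loss with the control preparation. EVs were isolated with a polymer, the libraries did not keep strand, and the labels give no age or sex of the mice. Whether the replicate libraries stem from different cultures is not stated, so the p-values reflect a spread that may be partly or wholly technical.

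Levels are the deposited FPKM, that is, fragments divided by transcript length and by the library's total. Each library held 16.3 to 20.2 M fragments (M for mega). Tests were made with limma on log2(FPKM + 0.5) over the 10981 genes whose mean reached 1 FPKM, adjusted over all of them by the Benjamini-Hochberg method, with a threshold of 0.05. Differences are on this log2 scale, with the standard error (SE), and levels are given as mean ± SD with n = 2 libraries. Of the 7 genes 6 were tested, and Mylk2 fell under the level filter. Myotube markers were abundant in each library, with 10117 to 15853 FPKM summed over 10 genes. At 12 h their sum overlapped between treatments, and at 24 h it was 10117 to 10461 FPKM in control and 12506 to 13699 FPKM with MPC EVs. Acta1 held the largest part of it, at 5286 ± 225 and 7237 ± 612 FPKM in control and MPC EV myotubes at 24 h. At that time 3 of the 10 were called higher, 1 lower and 6 not, against 2.61% of all genes higher and 0.956% lower. Over the 8 libraries 7 progenitor markers summed to 305 to 462 FPKM and 3 endothelial markers to 0.0910 to 0.312 FPKM. The 6 smooth muscle and pericyte markers summed to 764 to 2002 FPKM, of which Acta2 alone had 672 to 1809 FPKM. At 24 h the progenitor sum was 305 to 308 FPKM in control and 346 to 371 FPKM with MPC EVs. Of 6 tested, 2 were called higher and 0 lower, against the 24 h shares given above. The smooth muscle and pericyte sum was then 882 to 946 FPKM in control and 764 to 869 FPKM with MPC EVs, with 0 of 2 tested called. At 12 h both sums overlapped between treatments. The 6 fibroblast markers summed to 22.0 to 28.2 FPKM in control and 11.9 to 16.8 FPKM with MPC EVs. Most of this came from the collagen genes Col1a1 and Col1a2, the 2 tested. Of these, 2 were called lower at 12 h and 1 at 24 h, against 14.3% and 0.956% of all genes. Pdgfra, in the same list, had higher means with MPC EVs, 0.739 ± 0.126 and 0.863 ± 0.0349 FPKM at 12 h and 0.821 ± 0.0625 and 1.05 ± 0.254 FPKM at 24 h. Dcn, Lum and Tcf21 were near 0. The 2 libraries of control at 12 h correlated at 0.947 over the tested genes, against 0.992 to 0.996 within the other groups, so results that rest on control 12 h replicate 2 are also given without it.

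The upstream regions of 2 genes are shown because Mylpf had the highest deposited level of the 7 and Myl6b changed most clearly with treatment. Each is the stretch of 250 bases before the gene's start in RefSeq (GRCm38.p6). Neither overlaps an exon of the GENCODE vM21 annotation. The Mylpf stretch lies at chr7:127211358-127211607 on the plus strand, and the Myl6b stretch at chr10:128498686-128498935, printed from the minus strand. In GENCODE vM21 the Mylpf gene spans chr7:127208890-127214298, so this stretch is before the RefSeq start but inside the vM21 span. Capitals mark the motif CANNTG, the E-box that muscle basic helix-loop-helix factors such as Myod1 and Myog can bind.
Mylpf: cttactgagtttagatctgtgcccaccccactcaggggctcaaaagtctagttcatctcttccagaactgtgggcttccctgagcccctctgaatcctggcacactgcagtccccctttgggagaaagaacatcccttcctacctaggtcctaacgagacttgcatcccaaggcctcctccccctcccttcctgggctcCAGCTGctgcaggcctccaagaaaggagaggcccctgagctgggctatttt
Myl6b: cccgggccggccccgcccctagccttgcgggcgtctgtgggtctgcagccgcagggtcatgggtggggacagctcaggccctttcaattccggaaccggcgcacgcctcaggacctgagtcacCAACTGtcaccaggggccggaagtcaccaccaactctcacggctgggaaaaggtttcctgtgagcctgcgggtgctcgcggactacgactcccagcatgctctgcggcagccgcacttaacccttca
The Mylpf stretch holds 1 CANNTG match, of the form CAGCTG, starting at position −51 from the RefSeq start, and the Myl6b stretch holds 1, at position −127. CANNTG occurs in 66.2% of 32817 RefSeq stretches of the same length and CAGCTG, which is a part of CANNTG, in 13.0%. A CArG box, a MEF2 site and CATTCC were also searched on both strands and were not found in these stretches. Their shares over all stretches were 1.47%, 2.92% and 12.6%. Windows were found for 6 of the 7 genes, and the one without was Mylk2.

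Mylpf encodes the regulatory light chain of fast skeletal muscle, and had the highest deposited level of the light chain genes. The gene (ENSMUSG00000030672) lies at chr7:127208890-127214298 in GRCm38. In control myotubes it was at 4622 and 5688 FPKM at 12 h and at 3764 and 3717 FPKM at 24 h. In MPC EV myotubes it was at 5765 and 4919 FPKM at 12 h and at 5182 and 4558 FPKM at 24 h. The libraries of both treatments overlapped at 12 h, and at 24 h both MPC EV libraries lay above both control libraries. Group means were 5155 ± 754 and 5342 ± 598 FPKM at 12 h and 3740.4 ± 33.4 and 4869.5 ± 441 FPKM at 24 h for control and MPC EV. The log2 difference between treatments was 0.05 (SE 0.14, adjusted p = 0.780) at 12 h and 0.38 (SE 0.14, adjusted p = 0.265) at 24 h in limma, so no difference in Mylpf passed the test at either time. Over both times it was 0.22 (limma adjusted p = 0.257), and without control 12 h replicate 2 it was 0.31 and passed (adjusted p = 0.0416), in a fit that called 12.1% of all genes against 8.54%. Over time in control myotubes the log2 difference was −0.46 (limma adjusted p = 0.0682), and it ran from −0.60 without control 12 h replicate 1 to −0.31 without control 12 h replicate 2. The first of these passed (adjusted p = 0.00720), in a fit that called 41.2% of all genes against 17.8% with all libraries, and the second did not (adjusted p = 0.128). Under quantile normalization it was −0.077 (adjusted p = 0.675).

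Myl2, the regulatory light chain of slow and ventricular muscle, was near the lower limit of the data. Control libraries held 45 and 48 Myl2 fragments at 12 h and 3 and 24 at 24 h, and MPC EV libraries held 18 and 27 at 12 h and 32 and 15 at 24 h. This corresponds to 2.71 ± 0.0126 FPKM in control and 1.41 ± 0.344 FPKM in MPC EV myotubes at 12 h, and to 0.754 ± 0.825 and 1.57 ± 0.896 FPKM at 24 h. Both control libraries were above both MPC EV libraries at 12 h, and the groups overlapped at 24 h. In limma the log2 difference with MPC EVs was −0.76 (SE 0.51, adjusted p = 0.294) at 12 h and 0.83 (SE 0.51, adjusted p = 0.596) at 24 h. Over time in control myotubes it was −1.53 (limma adjusted p = 0.0879), and it ran from −0.81 (adjusted p = 0.310) without control 24 h replicate 1 to −2.26 (adjusted p = 0.0469) without control 24 h replicate 2, where the lone 24 h control library holds 3 Myl2 fragments. Myl2 made up 0.00455% to 0.0584% of the summed regulatory light chain FPKM, and Mylpf the rest. The gene (ENSMUSG00000013936, chr5:122100951-122113472) overlaps exons of Ccdc63 on the other strand, and reads of the 2 genes cannot be told apart there.

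Of the essential light chains, Myl1 was the one with higher values at 24 h than at 12 h in all libraries of the same treatment, a log2 difference of 0.26 in control (limma adjusted p = 0.0660) and 0.22 in MPC EV myotubes (limma adjusted p = 0.0928) that did not pass. Myl1 encodes the fast skeletal forms and lies at chr1:66924295-66945404 (ENSMUSG00000061816). Control libraries had 1413 and 1449.9 FPKM at 12 h and 1680.3 and 1746 FPKM at 24 h. MPC EV libraries had 1805 and 1607 FPKM at 12 h and 1992 and 1984 FPKM at 24 h. Both MPC EV libraries lay above both control libraries at each time. The means of control and MPC EV were 1432 ± 25.9 and 1706 ± 140.4 FPKM at 12 h, and 1713 ± 46.3 and 1988 ± 5.55 FPKM at 24 h. The log2 difference was 0.25 (SE 0.08, limma adjusted p = 0.0656) at 12 h and 0.22 (SE 0.08, limma adjusted p = 0.257) at 24 h, and neither passed. In the fit over both times, with time as a term, Myl1 rose with MPC EVs by a log2 of 0.23 (SE 0.06, 95% interval 0.10 to 0.36, limma adjusted p = 0.0448), a ratio of 1.18. The call was lost without any 1 of the libraries other than control 12 h replicate 2, with log2 differences from 0.20 to 0.26. Each such fit leaves a lone library in 1 group. A pseudogene, Mylf-ps, shares 242 stretches of 50 bases with Myl1, so some of its reads may have been placed there.

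Myl4 encodes the embryonic and atrial essential light chain, which is made in developing skeletal muscle. It was at 1157 and 1383 FPKM in control and at 1337 and 1185 FPKM in MPC EV libraries at 12 h, and at 865 and 829 FPKM in control and 1181 and 1032 FPKM in MPC EV libraries at 24 h. The treatments overlapped at 12 h, and at 24 h both MPC EV libraries were above both control libraries. The log2 difference between treatments was −0.01 (SE 0.12, limma adjusted p = 0.967) at 12 h and 0.38 (SE 0.12, limma adjusted p = 0.183) at 24 h. The sign at 12 h turned to 0.11 under median-ratio scaling. In control myotubes Myl4 fell between 12 h and 24 h by 0.58 on the log2 scale (SE 0.12, limma adjusted p = 0.0208), from 1270.1 ± 160.2 to 847 ± 25.9 FPKM. Without control 24 h replicate 1 or replicate 2 the adjusted p was 0.103 or 0.141. In MPC EV myotubes Myl4 was at 1261 ± 107 FPKM at 12 h and 1106 ± 105 FPKM at 24 h (log2 difference −0.19, limma adjusted p = 0.310). The gene (ENSMUSG00000061086) lies at chr11:104550663-104595753.

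The deposited level of Myl4 is set by the transcript length behind it. The steps between the deposited values of a gene show the length that was used, and for Myl4 this was 3273 bases, the length of Myl4-208, a transcript with a retained intron. The longest coding transcript, Myl4-203, has 943 bases. On the coding length the Myl4 values were 3.47 times higher: 4015 and 4802 FPKM in control and 4640.3 and 4114 FPKM in MPC EV libraries at 12 h, and 3003 and 2876 FPKM in control and 4098 and 3582 FPKM in MPC EV libraries at 24 h. Myl4 then stood above Myl1 in all 8 libraries and below Mylpf in all 8, whereas on the deposited scale it was below Myl1 in all 8. All Myl4 fragments were divided by 943 bases for this. Any fragments from outside Myl4-203, such as from the retained intron, could not be told apart and would make these values too high. For Mylpf, Myl2, Myl1, Myl6b and Mylk2 the length used was that of the longest coding transcript (766, 889, 1082, 1026 and 2951 bases), and for Myl3 it was 943 bases against 937. The choice of length moves the order of the genes and leaves each gene's differences between groups as they are.

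**Figure D1:**
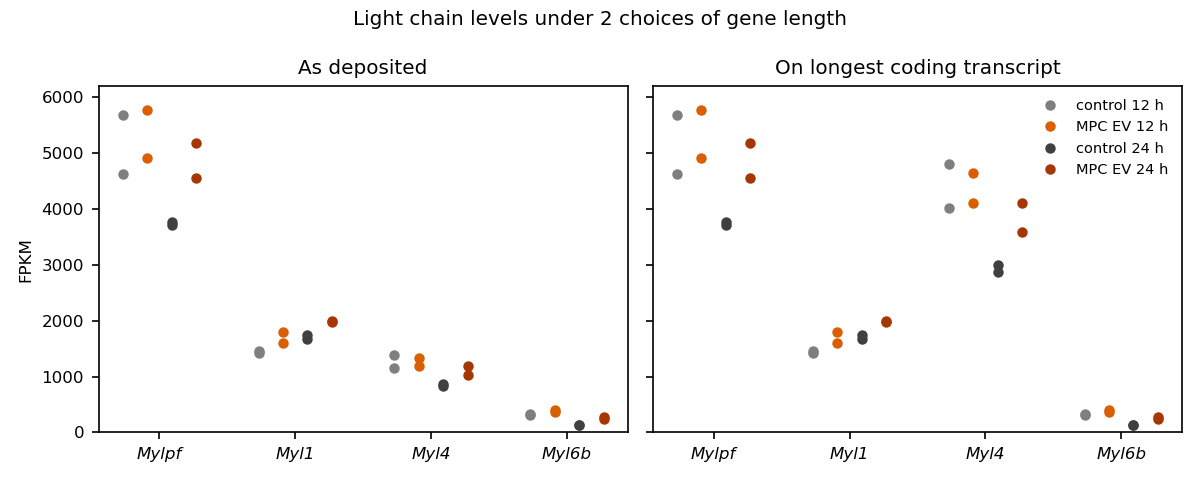
Level of the light chain genes in FPKM as deposited and on the length of the longest coding transcript, by gene, with 1 point per library. Only Myl4 moves visibly, by 3.47 times, from below Myl1 to above it.

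Myl6b was the light chain gene with the clearest difference between treatments. It encodes an essential light chain of slow skeletal and non-muscle myosin. Control libraries had 308 and 327 FPKM at 12 h and 128 and 133 FPKM at 24 h. MPC EV libraries had 409 and 362 FPKM at 12 h and 270.2 and 249 FPKM at 24 h. The 24 h control libraries were the lowest of all 8, and both MPC EV libraries lay above both control libraries at each time. Myl6b rose with MPC EVs at 24 h by a log2 of 0.99 (SE 0.08, 95% interval 0.79 to 1.18, limma adjusted p = 0.00360), from 131 ± 3.34 to 259.6 ± 15.1 FPKM, a 1.98-fold difference. The sums of the myotube markers, mostly Acta1, and of the progenitor markers were also higher with MPC EVs at 24 h. The sums of the fibroblast markers, mostly Col1a1 and Col1a2, and of the smooth muscle and pericyte markers, mostly Acta2, were lower. Their levels and calls are given above, and their part in the light chain values was not tested. At 12 h the means were 317 ± 13.4 and 386 ± 33.7 FPKM, with a log2 difference of 0.28 (SE 0.08, limma adjusted p = 0.0590), which did not pass; without control 12 h replicate 2 it was 0.32 and passed (adjusted p = 0.0471). Leaving out a 24 h library ended the call at 24 h in 3 cases, with a log2 difference of 0.96 (adjusted p = 0.0548) without the first control library, 1.01 (adjusted p = 0.0509) without the second, and 0.93 (adjusted p = 0.0518) without the first MPC EV library, fits that called 0.246% to 0.41% of all genes against 3.57% and in which 1 group holds a lone library that is assumed to vary like the others. The effects at the 2 times differed by 0.71 (SE 0.12, limma adjusted p = 0.114), which did not pass with all libraries and did without control 12 h replicate 1 (0.75, adjusted p = 0.00213), in a fit that called 33.4% of all genes against 0% with all libraries. Over both times Myl6b rose by 0.63 (SE 0.14, limma adjusted p = 0.0357). That call was kept when the second library of either 12 h group was left out and lost without any 1 of the other libraries. With each library left out in turn the log2 difference ran from 0.54 to 0.74.

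Myl6b was lower at 24 h than at 12 h under both treatments. In control myotubes it fell between 12 h and 24 h by 1.27 on the log2 scale (SE 0.08, limma adjusted p = 0.000505), and in MPC EV myotubes it fell by 0.57 (SE 0.08, limma adjusted p = 0.00769). The fall in MPC EV myotubes was not called without MPC EV 12 h replicate 1 or MPC EV 24 h replicate 2, fits that leave a lone library in 1 group. With each library left out in turn its log2 difference ran from −0.66 to −0.48. The Myl6b values rest on 2597 to 7275 fragments per library. The gene (ENSMUSG00000039824) lies at chr10:128494157-128498685 and shares 27 stretches of 50 bases with the pseudogenes Gm5526, Gm5915 and Gm8894.

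**Figure D2:**
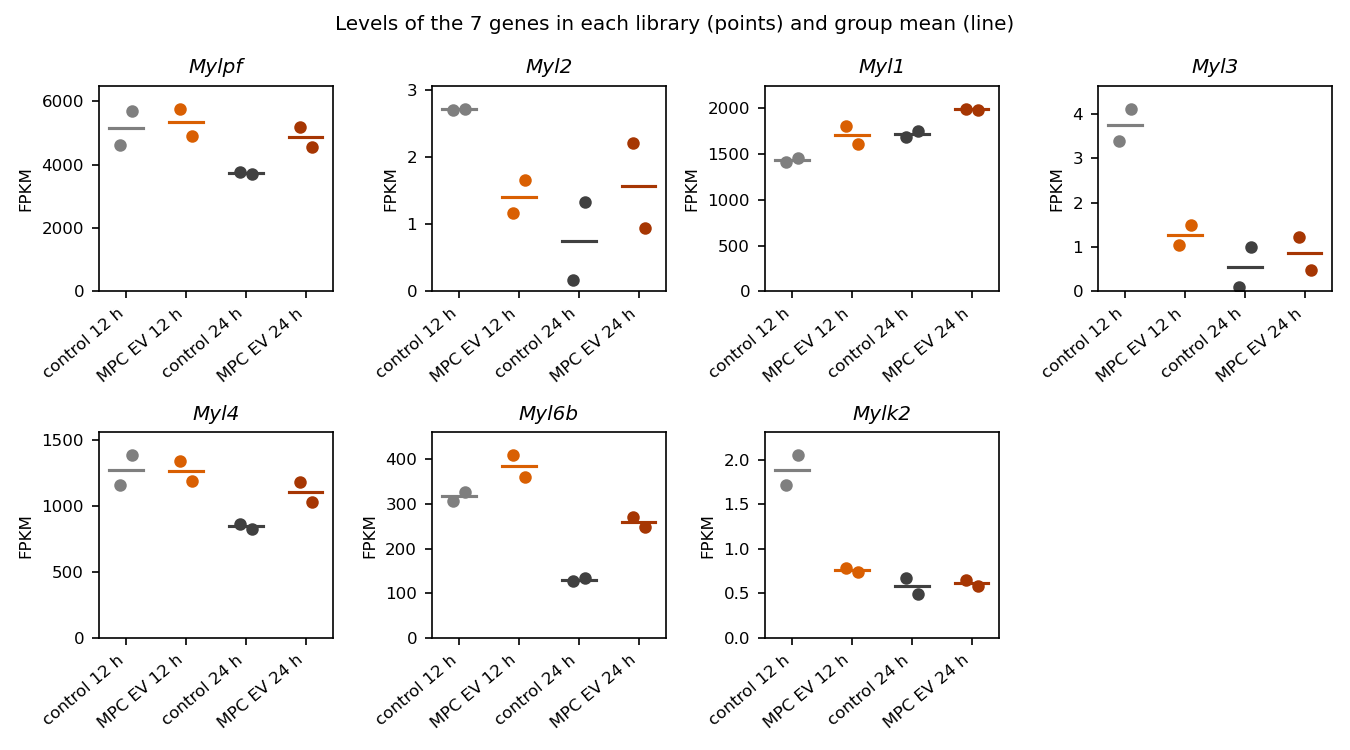
Level in FPKM (vertical axis, from 0, its own scale in each panel) of the 7 genes in each of the 8 libraries, with a line at each group mean. Myl6b in control myotubes at 24 h, at 128 and 133 FPKM, is the lowest of its 4 groups, and Myl1 in MPC EV myotubes at 24 h is the highest of its 4.

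Myl3, the essential light chain of slow and ventricular muscle, was as scarce as Myl2. Control libraries held 60 and 77 Myl3 fragments at 12 h and 2 and 19 at 24 h, and MPC EV libraries held 17 and 26 at 12 h and 19 and 8 at 24 h. Both control libraries at 12 h stood above every other library. The levels of control and MPC EV were 3.75 ± 0.507 and 1.27 ± 0.327 FPKM at 12 h and 0.553 ± 0.630 and 0.853 ± 0.539 FPKM at 24 h. With MPC EVs the log2 difference was −1.27 (SE 0.47, limma adjusted p = 0.102) at 12 h and 0.44 (SE 0.47, limma adjusted p = 0.836) at 24 h, and neither passed. In control myotubes Myl3 fell between 12 h and 24 h by 2.15 on the log2 scale (SE 0.47, limma adjusted p = 0.0260). Myl3 reached the filter's mean of 1 FPKM only through the 12 h control libraries, the group from which it fell. The filter and this call are therefore not independent. The call was lost without control 24 h replicate 1, which held 2 fragments (log2 difference −1.501). It was also lost without MPC EV 12 h replicate 1 or 2, which do not enter this difference. The gene (ENSMUSG00000059741, chr9:110741861-110769798) overlaps exons of Pth1r on the other strand.

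Some other genes of heart muscle were high or low in the same libraries as Myl2 and Myl3, and others were not. Of a list of 6 cardiac markers, the summed level was 4.94 and 4.55 FPKM in control and 1.28 and 2.20 FPKM in MPC EV libraries at 12 h, and 0.901 and 3.01 FPKM in control and 2.72 and 1.34 FPKM in MPC EV libraries at 24 h. Myh6, the heavy chain of atrial and adult rodent heart, held 302 and 185 fragments in control and 23 and 70 in MPC EV libraries at 12 h, and 6 and 126 in control and 83 and 26 in MPC EV libraries at 24 h. Tnni3, the cardiac troponin I, held 19 and 27, 3 and 7, 4 and 17, and 9 and 3 fragments in the same order. In both pairs at 24 h and in the MPC EV pair at 12 h, the library with more Myh6 also held more Myl2, Myl3 and Tnni3. The 12 h control pair did not follow that order. Gata4, a transcription factor of heart muscle in the same list, went the other way: it was lowest in control myotubes at 12 h, with 10 and 11 fragments, and held 12 and 20 in MPC EV libraries at 12 h and 16 and 25 in control and 24 and 22 in MPC EV libraries at 24 h. Between 0 and 2 of the 6 markers were at 0 in a library, among them Nppa and Nkx2-5, and none of the 6 passed the level filter. Their part in the Myl2 and Myl3 values was not tested. In RNA from whole cultures, fewer cells of a type and less RNA per cell cannot be told apart.

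**Figure D3:**
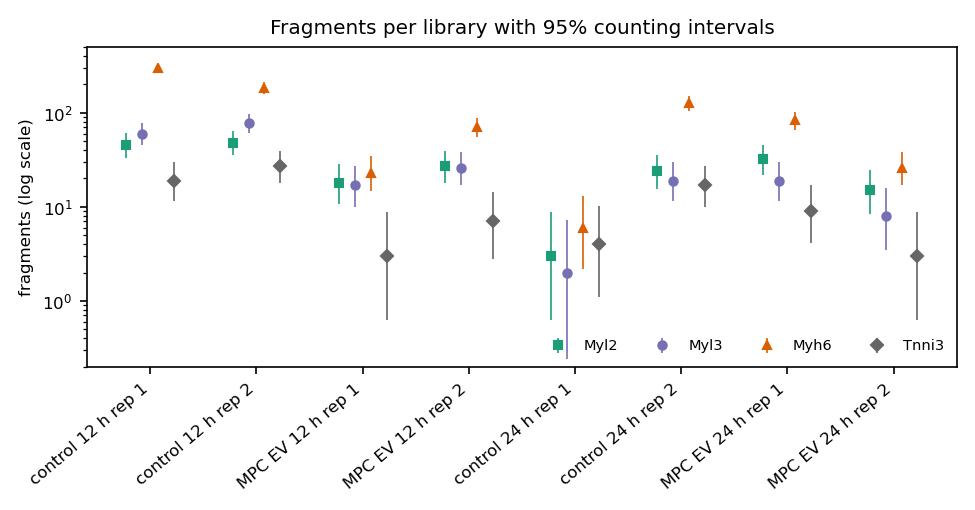
Fragments of Myl2, Myl3, Myh6 and Tnni3 per library (logarithmic axis) with 95% exact Poisson intervals, which cover counting error only. Control 24 h replicate 1 is the lowest library for Myl2, Myl3 and Myh6, with 3, 2 and 6 fragments.

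Mylk2 encodes the light chain kinase of skeletal muscle, which phosphorylates the regulatory chain. It held 95 and 120 fragments in control and 40 in each MPC EV library at 12 h, and 39 and 29 in control and 31 in each MPC EV library at 24 h. Both control libraries at 12 h stood above the other 6, at 1.88 ± 0.233 FPKM. The other groups were at 0.761 ± 0.0307 FPKM (MPC EV at 12 h), 0.579 ± 0.130 FPKM (control at 24 h) and 0.614 ± 0.0421 FPKM (MPC EV at 24 h). Mylk2 entered the test when the level filter was lowered to a mean of 0.1 FPKM. It was then lower with MPC EVs at 12 h by a log2 difference of −0.92 (SE 0.15, limma adjusted p = 0.0174), among 15048 genes of which 12.1% were called. At 24 h the log2 difference was 0.05 (SE 0.15, limma adjusted p = 0.961). Over time in control myotubes it was −1.15 (SE 0.15, limma adjusted p = 0.00519), and in MPC EV myotubes −0.18 (limma adjusted p = 0.481). The difference at 12 h was not called without MPC EV 12 h replicate 1 (−0.94) or 2 (−0.89). That over time in control myotubes was not called without control 24 h replicate 2 (−1.02). Each of these fits leaves a lone library in 1 group. The gene (ENSMUSG00000027470) lies at chr2:152911352-152923068.

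Counted together, none of the 6 tested genes passed at 12 h with MPC EVs, where 18.6% of all genes were called, 4.36% higher and 14.3% lower. By limma 3 of the 6 (Myl1, Myl3 and Myl6b) had an unadjusted p under 0.05, as did 4173 of all 10981 genes. With limma voom on recovered fragments 0 of the 6 and 1988 of all genes were called. The median log2 difference of all genes was −0.12 at 12 h and moved to −0.00 under median-ratio scaling; relative to that median the differences were 0.39 for Myl6b, 0.37 for Myl1, 0.17 for Mylpf, 0.11 for Myl4, −0.64 for Myl2 and −1.16 for Myl3. Under that scaling Myl1 (0.37, adjusted p = 0.0371) and Myl6b (0.40, adjusted p = 0.0374) were called higher, 2 of the 6, where 6.04% of all genes were called higher and 5.05% lower. At 24 h, 1 of the 6 was called, Myl6b, where 3.57% of all genes were called, 2.61% higher and 0.956% lower. For the difference of the effects between the times, limma called 0 of the 6 and 0% of all genes, with 2 of the 6 and 2014 genes at an unadjusted p under 0.05 and 0 called by voom. Over both times 2 of the 6 were called, both higher, against 8.54% of all genes, 4.2% higher and 4.34% lower.

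Over time in control myotubes 3 of the 6 genes were called, all lower, against 17.8% of all genes, 7.54% higher and 10.3% lower. Among the 3 is Myl3, which passed the level filter only through the 12 h control libraries. Under quantile normalization Myl1 was also called there, higher (0.25, adjusted p = 0.0158), where 7.01% of all genes were called higher. Over time in MPC EV myotubes 1 of the 6 was called, lower, against 18.3% of all genes, 12.9% higher and 5.4% lower. Libraries did not overlap between treatments for 5 of the 7 genes at 12 h (2 higher and 3 lower with MPC EVs) and for 4 at 24 h (all higher), where 62.1% and 54.0% of all tested genes did not overlap, 17.1% higher and 45.0% lower at 12 h and 23.7% higher and 30.2% lower at 24 h. Between the times, the libraries of all 7 did not overlap in control myotubes (1 higher and 6 lower at 24 h) against 58.8% of all tested genes (27.8% higher and 30.9% lower), and those of 4 did not overlap in MPC EV myotubes (1 higher and 3 lower) against 70.7% (47.1% higher and 23.6% lower). The comparisons of treatment and of time share the same libraries, so these counts are not independent of each other.

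**Figure D4:**
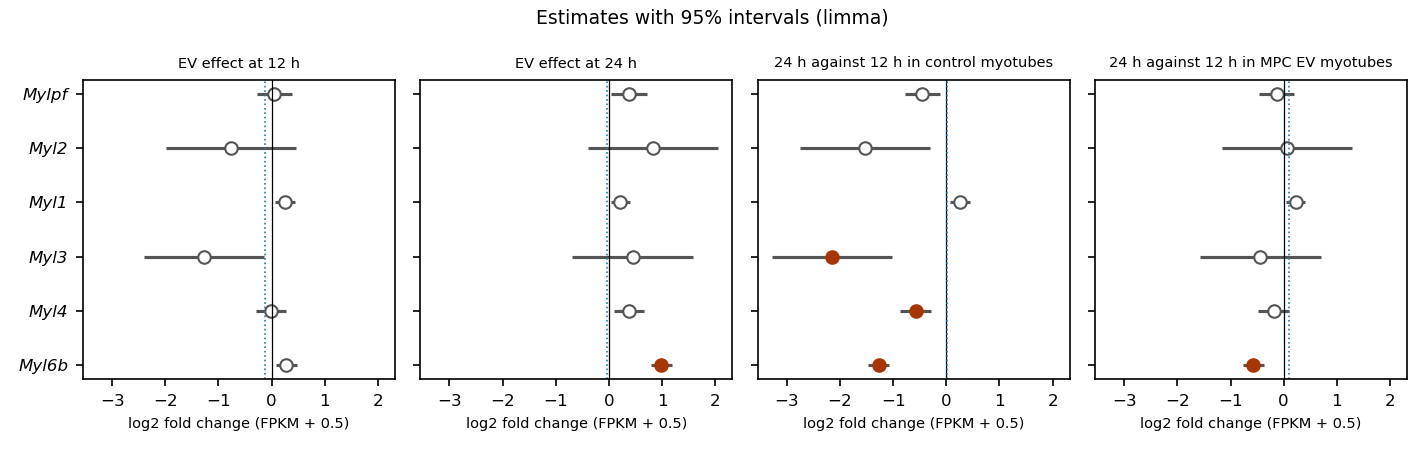
Log2 difference on the log2(FPKM + 0.5) scale with its 95% limma interval for the 6 tested genes in 4 comparisons. Filled points passed an adjusted p of 0.05, and the dotted line is the median of all tested genes. Myl6b at 24 h, at 0.99, is the only filled point among the EV effects.

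The balance between light chain forms was compared within libraries, where scaling between libraries has no part. In control libraries the ratio of Myl6b to Myl1 FPKM was 0.218 and 0.226 at 12 h and 0.0767 and 0.0765 at 24 h. In MPC EV libraries it was 0.227 and 0.225 at 12 h and 0.136 and 0.126 at 24 h. The ratio was thus alike between treatments at 12 h and higher in both MPC EV libraries at 24 h. The mean log2 difference over both times was 0.40 (exact permutation p = 0.111, two-sided, adjusted over 3 ratios 0.333). The smallest p these 36 arrangements allow is 0.0556. The ratio of Myl4 to Myl1 was 0.819 and 0.954 in control and 0.741 and 0.738 in MPC EV libraries at 12 h, and 0.515 and 0.475 in control and 0.593 and 0.520 in MPC EV libraries at 24 h, on the deposited scale. It was lower with MPC EVs at 12 h and higher at 24 h, with a mean log2 difference of −0.05 (exact permutation p = 0.667). For Mylpf to Myl1 the mean log2 difference was −0.02 (exact permutation p = 0.889), from a difference of −0.20 at 12 h and 0.16 at 24 h.

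Among the essential chains Myl1 made up 45.8% to 50.9% of the summed deposited FPKM at 12 h and 57.8% to 64.5% at 24 h. On the coding length Myl4 held 60.5% to 72.9% and Myl1 22.0% to 36.7% of the essential sum. Myl6b held 2.67% to 5.97% there, with the lowest shares in control myotubes at 24 h. The sum of the essential chains on the coding length was 1.16 to 1.28 times the sum of the regulatory chains in the 8 libraries. The values on the coding length, here and below, take all Myl4 fragments as coming from the coding transcript. The 7 genes together took 0.759% to 1.12% of a library's fragments.

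Summed heavy chain RNA moved much more between groups than summed light chain RNA. The sarcomeric heavy chain genes summed to 569 and 651 FPKM in control and 1672 and 1663 FPKM in MPC EV libraries at 12 h. At 24 h they summed to 222 and 254 FPKM in control and 934 and 778 FPKM in MPC EV libraries. Myh3 made up most of the sum, with means of 436 and 1232 FPKM in control and MPC EV myotubes at 12 h. Myh6 went the other way at 12 h, with means of 2.09 and 0.423 FPKM. Single light chain genes could move as much: over time in control myotubes the ratio of means was 0.41 for Myl6b, 0.15 for Myl3 and 0.39 for Myh3. On the deposited scale the ratio of the summed light chains to the summed heavy chains was 13.2 and 13.6 in control and 5.57 and 4.86 in MPC EV libraries at 12 h. At 24 h it was 29.0 and 25.3 in control and 9.24 and 10.1 in MPC EV libraries. On the coding length it was 18.2 and 18.9 in control and 7.55 and 6.62 in MPC EV libraries at 12 h. At 24 h it was 38.6 and 33.4 in control and 12.4 and 13.3 in MPC EV libraries on that length. The ratio was lower with MPC EVs at both times without overlap, and highest in control myotubes at 24 h. It is given as values with no test, since the genes summed were chosen with results known.

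**Figure D5:**
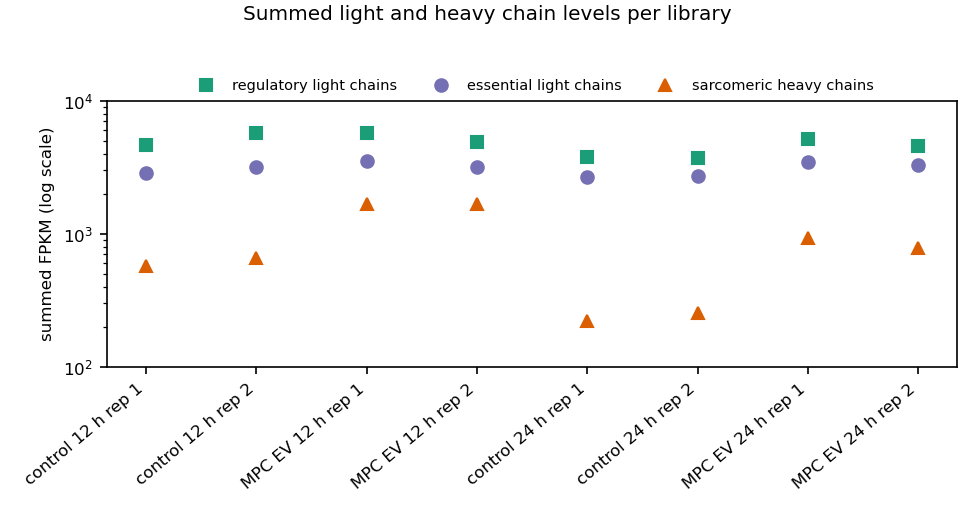
Summed deposited FPKM of regulatory light chains, essential light chains and sarcomeric heavy chains in each library (logarithmic axis). The heavy chain sum runs from 222 to 1672 FPKM over the 8 libraries, and the light chain sums vary less.

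Of 10 sarcomeric heavy chain genes 4 were tested, and all 4 rose with MPC EVs at 12 h (median log2 difference 1.46) and at 24 h (median 1.91), against medians of −0.12 and −0.03 over all genes. Myh3, the embryonic heavy chain, rose by a log2 of 1.500 (SE 0.11, limma adjusted p = 0.00245) at 12 h and 1.88 (SE 0.11, limma adjusted p = 0.00205) at 24 h. Myh7, the slow heavy chain, rose by 1.62 at 12 h and 1.95 at 24 h, Myh8, the perinatal form, by 1.42 and 2.03, and Myh1, a fast form, by 1.10 and 1.07. The same 4 fell over time under both treatments. The 4 of 4 held under median-ratio scaling, quantile normalization, the GC and length correction and without control 12 h replicate 2.

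Of 6 other light chain genes 4 were tested. Myl12b, a regulatory chain of non-muscle myosin, fell with MPC EVs at 12 h by 0.52 on the log2 scale (SE 0.07, limma adjusted p = 0.00909), and none was called at 24 h, where without control 12 h replicate 2 there was 1 higher and 1 lower. Over time in control myotubes Myl12b, Myl12a and Myl6, the non-muscle and smooth muscle essential chain, fell by 1.09, 0.39 and 0.40 on the log2 scale. Myl6, a close relative of Myl6b, stood at 947 ± 87.7 FPKM in control and 881 ± 79.5 FPKM in MPC EV myotubes at 12 h and at 714 ± 23.8 and 798 ± 22.5 FPKM at 24 h. Of 4 non-muscle and smooth muscle heavy chain genes 2 were tested and none was called with MPC EVs at either time, although Myh10 was called higher at 12 h under median-ratio scaling and without control 12 h replicate 2.

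Of 12 genes for light chain kinases, the light chain phosphatase and their regulators 10 were tested. Mylk4, a kinase of the same family, rose with MPC EVs by a log2 of 0.54 (SE 0.11, limma adjusted p = 0.0247) at 12 h and 0.62 (SE 0.11, limma adjusted p = 0.0381) at 24 h, at 15.9 ± 1.76 and 23.4 ± 2.15 FPKM in control and MPC EV myotubes at 12 h. Mylk4 also fell over time in control and in MPC EV myotubes. The list's median at 12 h was 0.38 and turned to −0.07 without control 12 h replicate 2, in which Rock1 was at 0.350 FPKM, against 13.5 FPKM in replicate 1.

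Of 11 thick filament partners and myosin chaperones 9 were tested, of which 7 rose with MPC EVs at 12 h and 3 at 24 h, and none fell. Unc45b, a myosin-folding chaperone, rose by a log2 of 0.91 (SE 0.10, limma adjusted p = 0.00548) at 12 h and 0.66 at 24 h. Mybpc1, slow myosin-binding protein C, rose by 0.71 and 1.00, and Mybph, myosin-binding protein H, by 0.97 at 24 h. The M-band genes Myom1 and Myom3 rose by 0.53 and 0.67 at 12 h. With the GC and length correction 4 rather than 7 were called higher at 12 h, against 3.73% of all genes. Without control 12 h replicate 2 the list's median log2 difference at 12 h was 0.69, against 0.67 with all libraries. Of 8 troponin genes 6 were tested, and none was called at 12 h, while Tnni1 and Tnni2, the slow and fast inhibitory subunits, rose at 24 h by 0.55 and 0.71. Under quantile normalization 4 troponins were called higher at each time, against 4.61% of all genes at 12 h and 2.38% at 24 h. With the GC and length correction 5 were called higher at 12 h and 3 at 24 h, against 3.73% and 1.72%.

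Of 13 transcription factors of muscle promoters, Mef2c rose by a log2 of 2.07 (SE 0.51, limma adjusted p = 0.0395) and Tead4 by 0.38 at 12 h. Mef2c stood at 42.2 and 12.0 FPKM in control replicates 1 and 2 and at 99.3 and 93.3 FPKM in the MPC EV libraries. At 24 h Mef2d rose by 0.41 (limma adjusted p = 0.0499). Under median-ratio scaling, quantile normalization and the GC and length correction 4, 3 and 2 of the 13 were called higher at 12 h, against 6.04%, 4.61% and 3.73% of all genes. Without control 12 h replicate 2 the list's median log2 difference at 12 h was 0.15, against 0.067 with all libraries. Myod1 and Myog fell over time in control myotubes by 0.56 and 0.69 on the log2 scale, and Myf5 rose by 1.16.

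Most calls of these listed genes with MPC EVs were not kept in every fit that left out 1 library. Each such fit has a lone library in 1 group and fewer residual degrees of freedom. Leaving out a library of the other time does not change a gene's difference between treatments, yet it ended some of these calls. A lost call is thus no measure of how much a difference rests on the library left out. Of the 14 calls singled out at 12 h by adjusted p, up to 4 per list, 3 were kept without each library in turn (Myh3, Myh7 and Unc45b), and of the 11 at 24 h 2 were kept (Myh3 and Myh7). Mylk4 at both times, Mef2c and Tead4 at 12 h, and Mef2d, Tnni1, Tnni2, Myh1 and Unc45b at 24 h each lost the call without any 1 of 6 of the 8 libraries. Over time, 14 of 20 such calls were kept in control myotubes and 4 of 19 in MPC EV myotubes.

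The genes whose profiles over the 8 libraries were most like those of the light chains were found by the root mean square (RMS) difference of the centred log2 profiles among 9262 genes (9263 for Myl2 and Myl3). Mylpf was nearest to Alkbh7 (RMS difference 0.0394 on the log2 scale), Myl4 (0.0544) and Acta1 (0.0627), the skeletal actin, and its own profile had an RMS of 0.225. Myl4 was nearest to Hras (0.0502) and then to Mylpf. Myl1 was nearest to Prkab2 (0.0484), a subunit of the AMP-activated kinase. Myl6b, whose own profile had an RMS of 0.589, was nearest to Adssl1 (0.0813), the muscle adenylosuccinate synthase, which stood at 61.8 and 69.6 FPKM in control and 95.3 and 83.7 FPKM in MPC EV libraries at 12 h, and at 30.3 and 28.8 FPKM in control and 59.4 and 51.0 FPKM in MPC EV libraries at 24 h. Adamts14 (0.0975) and Fxyd6 (0.116) came next. Myl2 and Myl3 had no close match, with RMS differences of 0.435 to Baalc and 0.445 to Ip6k3. With 8 libraries in 4 groups, such likeness is a description.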

How the data were processed

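The authors deposited 1 table of FPKM values, 1 column per library. The submitters' processing notes name HISAT2, the mm10 build and DESeq2, the last as version 2, without roles. The labels state no annotation release, counting tool or strand setting. FPKM divides by length and library total, so a few abundant transcripts move all other values of a library. IDs were matched to GENCODE vM21 (GRCm38), with a symbol for 34490 and none for 785.

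Whole fragments were recovered from the steps between FPKM values: all 8 values of 10981 of the 10981 tested genes (100%) came out whole, with the length of the longest vM21 transcript for 7145 of them (65.1%, tolerance 0.02) and a searched length for the others. Genes whose mean reached 1 FPKM were tested with limma 3.58.1 in R 4.3.3 (lmFit, eBayes with an intensity trend, two-sided, Benjamini-Hochberg over all tested genes), on log2(FPKM + 0.5), in a fit of the 4 groups or, over both times, of treatment and time. A main count test was not run, since the deposited unit is FPKM; limma voom on recovered fragments was an added alternative. The residual degrees of freedom were 4 and 5. The steps were tested on simulated data. Python 3.11.15, numpy 2.4.6, pandas 2.3.3, scipy 1.17.1 and matplotlib 3.10.9 made the tables and figures.

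The genes described and the lists were chosen with earlier results of these data known. The text names each of the 7 genes in each comparison, up to 4 called genes per list and comparison by adjusted p, and the 3 most similar genes among those reaching a mean of 2 FPKM. Rock1 and Acta2, the Mylk2 test, the heart muscle genes and Myl6 were added to the text after their values were seen. A few listed genes are counted but not reported here by name. Intervals of fragments are exact Poisson at 95% and cover counting error only. Other scalings, filters, pseudocounts, a replicate block and each library left out were tried.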

Additional observations from a re-analysis of the deposited data

How the results depend on the processing

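The count of called genes among the 7 at 12 h, 0 in the main test, was 1 with a filter of 0.1 FPKM or none (the kinase gene Mylk2, lower). It was 2 higher under median-ratio scaling and quantile normalization, and 3 higher with a GC and length correction chosen after seeing the data. Of all genes these settings called 3.28%, 1.89%, 6.04%, 4.61% and 3.73% higher and 8.86%, 4.75%, 5.05%, 6.8% and 2.95% lower, in that order. At 24 h it was 1, and 3 under quantile normalization and 2 when only the 24 h groups were fitted (3.22% and 6.95% of all genes). Over time in control myotubes it was 3, and 4 under quantile normalization (Myl1 higher) and with the 0.1 FPKM filter (Mylk2 lower), 2 with no filter (Mylk2 among them) or one of 5 FPKM, and 1 when only the groups compared were fitted (17%, 12.6%, 7.65%, 20.7% and 4.37% of all genes); in MPC EV myotubes it was 1, and 2 with the GC and length correction (10.9%). Over both times it was 2, and 1 with the 0.1 FPKM filter or no variance trend, 0 with no filter, and 4 with the GC and length correction (6.5%, 8.2%, 3.64% and 7.08%). The count of each comparison changed when some single libraries were left out. Each such fit leaves a lone library in 1 group, so these counts are not given. The causes were not tested. With the replicate number as a block, the count over both times was 0 (limma adjusted p 0.0713 for Myl6b and 0.0949 for Myl1), where 5.86% of all genes were called. The other counts of calls were unchanged with this block. Same-numbered control and MPC EV libraries correlated at −0.01 at 12 h and 0.24 at 24 h, with 2 pairs only, so the numbers are not taken to pair the libraries. Signs turned only in differences that had not passed. The Myl4 difference at 12 h was 0.11, 0.11 (0.105) and 0.35 under median-ratio scaling, quantile normalization and the GC and length correction, with the last called (adjusted p = 0.0401), and ran from −0.14 to 0.12 without 1 library; that of Mylpf ran from −0.10 to 0.20. Without 1 library Myl3 at 24 h ran from −0.21 to 1.10, the Myl1 difference of effects from −0.12 to 0.049, Myl2 over time in MPC EV myotubes from −0.40 to 0.51 and Myl2 over both times from −0.41 to 0.27. The Myl4 difference of effects was −0.0021 with the GC and length correction. Myl2 over time in MPC EV myotubes was −0.016, −0.021 and −0.10 under median-ratio scaling, quantile normalization and the GC and length correction, and Mylpf there was 0.059 under quantile normalization. Myl2 over both times was −0.019 with a pseudocount of 1, −0.019 under quantile normalization and −0.068 with voom on recovered fragments. The mean log2 differences of the ratios ran without 1 library from −0.10 to 0.010 for Myl4 to Myl1, 0.37 to 0.43 for Myl6b to Myl1 and −0.082 to 0.049 for Mylpf to Myl1. Myl2, Myl3 and Mylk2 rest on few fragments, which limits their precision more than that of the other genes.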
